A study of Mus musculus with 10 samples.

Results

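The genes described here build, remove and read the ubiquitin mark on proteins, and their transcripts were followed in mouse testis after trichostatin A. They were the probes with a single gene symbol that begins with Uba or Usp and a digit, Ube, Fbx, Cul and a digit, Ubqln, Uchl and a digit from 2 to 9, Siah, Nedd4, Nedd8, Senp or Sumo. This name rule took 99 probes for 95 genes out of 10012 probes on the array, of which 8983 carried a single symbol. Of the 99 probes, 98 had values (the probe of Cul3 was missing on every array), 87 were bright enough to be tested, and 11 lay below the dim limit, a mean intensity of 0.207 that left out the lowest 25% of all probes.

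Ubiquitin is a small protein that is attached to other proteins in a relay. An activating enzyme (E1) charges it, a conjugating enzyme (E2) carries it, and a ligase (E3) chooses the target. Some chain linkages send proteins to the proteasome, while other linkages act in signalling and DNA repair. F-box proteins are the target-binding subunits of cullin-based ligases, which are switched on by the ubiquitin-like protein Nedd8, and deubiquitinases take the mark off again. SUMO is a related modifier that Senp proteases remove, and ubiquilins bring ubiquitinated proteins to the proteasome. In the testis the system is known for its part in chromatin change and protein turnover as spermatids mature.

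Trichostatin A (TSA) inhibits histone deacetylases. All animals were male BALB/c mice aged 9 weeks, and no allele or transgene was named for any group. The control group was given the carrier, dimethylsulfoxide and PBS, and was killed at 10 h. The 4 TSA groups were given 60 µg of TSA per mouse under the skin in 1 injection and were killed at 2.5, 5, 7.5 or 10 h. Each group had 3 mice, whose testis RNA was pooled and read on 2 CodeLink arrays. A group was therefore 1 pool (n = 1) with a technical duplicate, no pool showed the spread between animals, and only the 10 h pool was matched to the control in hour of killing.

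Intensities were deposited as linear values with a median of 1.00 on every array. Duplicate arrays correlated with r from 0.995 to 0.998 over the tested probes. Measured germ cell markers were all above the dim limit, 8 of 8 for spermatocytes and 8 of 8 for spermatids. Markers of other origin passed it too, 13 of 14 for liver, 4 of 4 for blood, 2 of 4 for macrophages and 2 of 3 for epididymis. Passing it therefore does not identify the tissue. The liver markers Apoa1 and Ttr read 28.5 and 19.0 in the 5 h pool, but 0.0708 to 0.216 and 0.0557 to 0.151 in the other pools. The summed intensity of spermatid markers was 709.2 in the control pool and 724.5 to 761.9 in the TSA pools. For spermatocyte markers it was 409.0 against 364.2 to 384.8, for Sertoli cell markers (8 measured, 7 above the limit) 50.3 against 50.1 to 54.8, and for Leydig cell markers (5 of 5) 107.2 against 104.2 to 130.2. Some single germ cell markers differed more than these sums, and in both directions. From the control to the 10 h pool, the spermatocyte markers Tex101, Piwil1 and Spo11 went from 30.2 to 13.1, 13.5 to 7.68 and 5.02 to 3.22. Pgk2, Sycp3, Hspa2 and Dmc1, also of spermatocytes, went from 91.2 to 71.5, 31.7 to 22.5, 41.4 to 35.1 and 0.447 to 0.381. All of these were lower in 4 of 4 TSA pools. The remaining measured spermatocyte marker, Ldhc, was higher in 4 of 4, and went from 195.5 to 210.7. Of the spermatid markers, Acr went from 29.2 to 20.1 and Hspa1l from 4.30 to 1.99. Acrv1 rose from 22.78 to 35.85, Tssk1 from 43.82 to 57.55 and Tnp1 from 172.3 to 222.8. The 5 h pool stood apart: its 14 liver markers summed to 207.6, against 19.6 in the control and 19.8 to 21.7 in the other TSA pools. The part of these marker levels in the results was not tested. In RNA from whole tissue, fewer cells of a type and less RNA per cell cannot be told apart.

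The first question was whether the genes stood at another level in the TSA pools than in the control pool. Across the 87 tested members, 58 had a lower mean in the TSA pools and 29 a higher one, and 41 were lower and 23 higher in 4 of 4 TSA pools. Over all 7422 tested probes, 3867 were lower and 3555 higher, and 2530 were lower and 2397 higher in 4 of 4 pools, which share the control. The median log2 difference was -0.13, with quartiles of -0.33 and 0.10, beside -0.02, -0.23 and 0.21 for all tested probes. The median of the members was -0.10 with each array centred within bins of probe ID, and -0.10 without the 5 h pool. The differences were small, since 73 members (83.9%) lay within 0.5 log2 units of the control, close to the 85.4% of all tested probes. None of the 87 members passed limma's test of the 4 TSA pools against the control pool at an adjusted p under 0.05 (0 members, where 3.53% of all tested probes passed). At an unadjusted p under 0.05 there were 10 members on the higher side (14.7% of all tested probes) and 21 on the lower side (13.7% of all), 31 together (28.3% of all). The lowest limma adjusted p of any member was 0.0521, for Uba3. Without the 5 h pool 0 members passed, where 0.0404% of all tested probes did, so nothing is read from that count.

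**Figure D1:**
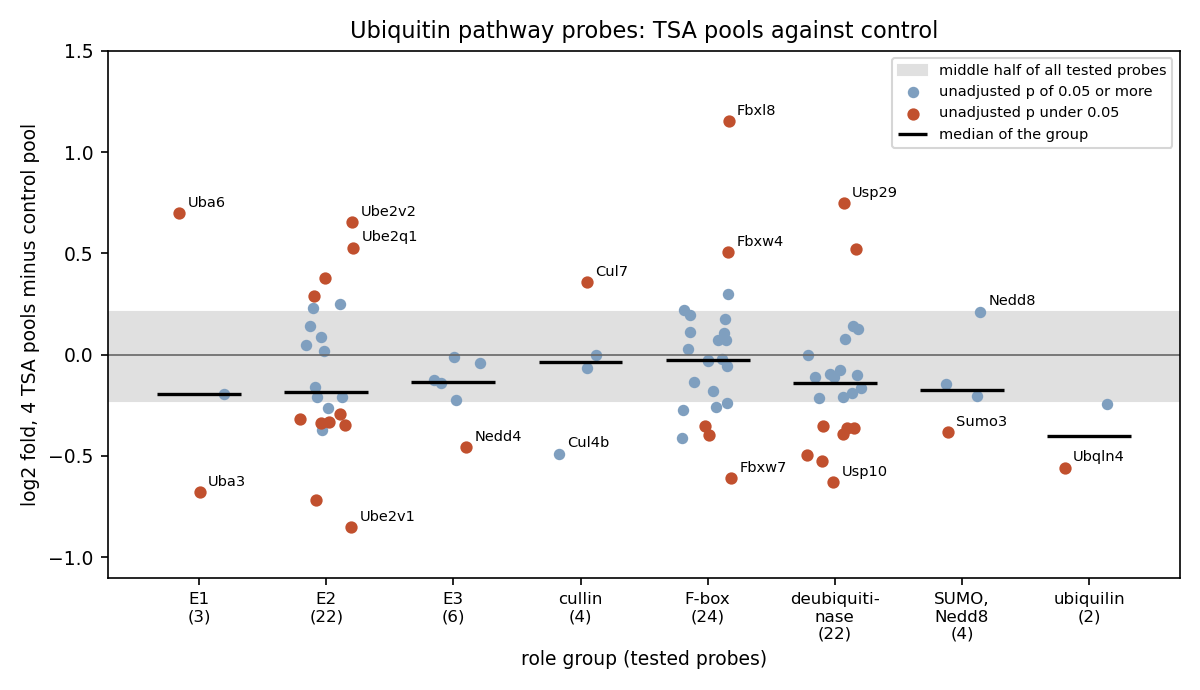
Mean log2 difference between the 4 TSA pools and the control pool (1 axis, log2 units) for the 87 tested members, 1 point a probe, in 8 role groups (the other axis). Most points lie within 0.5 of 0, and Ube2v1 at -0.85 and Fbxl8 at 1.15 mark the ends. Of the deubiquitinases 17 of 22 lie on the lower side, beside 3867 of 7422 over all tested probes. Fbxl8 was under the dim limit in the control pool, and its difference was 0.32 with 0.5 added before the logarithm.

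The lean to the lower side was present at each time. The median log2 fold of the members was -0.11 at 2.5 h, -0.11 at 5 h, -0.12 at 7.5 h and -0.10 at 10 h. Over all tested probes these medians were -0.02, -0.03, -0.01 and 0.01. All 4 folds share the same control pool, so they are not independent of each other. In 30 members all 8 TSA arrays were below both control arrays (23.0% of all tested probes), and in 17 members all 8 were above both (22.2% of all).

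**Figure D2:**
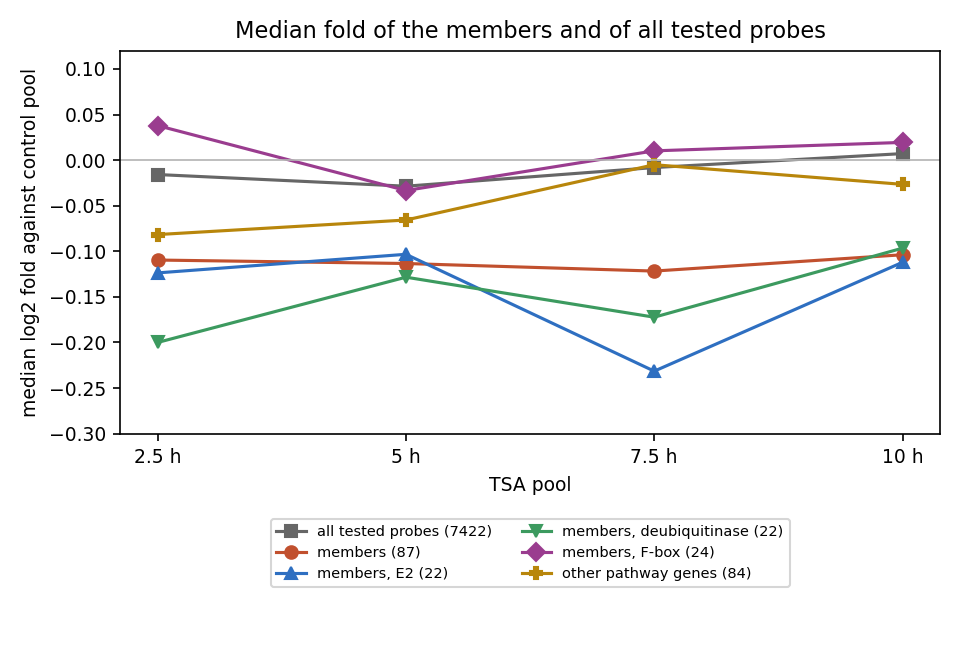
Median log2 fold against the control pool (vertical axis, log2 units) at 2.5, 5, 7.5 and 10 h (horizontal axis). Lines are the tested members, all tested probes, the E2, deubiquitinase and F-box members, and other genes of the pathway. The members together stay between -0.12 and -0.10 while all tested probes stay between -0.03 and 0.01. The F-box members stay between -0.03 and 0.04.

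A second comparison asked whether levels changed in step with hours after TSA, with the control taken as 0 h. No member passed this limma test (0 of 87, where 2.01% of all tested probes passed), and the lowest limma adjusted p was 0.0649, for Usp29. At an unadjusted p under 0.05, 5 members had a rising slope (12.7% of all tested probes) and 14 a falling one (12.4% of all), 19 together (25.1% of all). The control was killed at 10 h and not at the time of injection, so its place at 0 h is an assumption of the fit.

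At single times a rule of size was used that carries no p: at least 2-fold apart, and the arrays of one pool both beyond those of the other. At 2.5 h it took Fbxl8 on the higher side (1 member, 0.674% of all tested probes) and Fbxw7 on the lower side (1 member, 0.243% of all), 2 members in all (0.916% of all). At 5 h Ube2v1 was lower (1 member, 0.337% of all), and 0 members were higher (1.21% of all), 1 in either direction (1.55% of all). At 7.5 h Fbxl8 and Uba6 were higher (2 members, 1.01% of all), and 0 members were lower (0.903% of all), 2 in either direction (1.91% of all). At 10 h Usp29 was higher (1 member, 1.23% of all) and Ube2v1 lower (1 member, 1.44% of all), 2 in either direction (2.67% of all). Between the 10 h and 2.5 h pools, which leaves out the control, Fbxl8 was lower (1 member, 0.795% of all), and 0 members were higher (0.189% of all), 1 in either direction (0.984% of all). Fbxl8 was under the dim limit in the control and 10 h pools and entered the tested set through the pools where it was high, so nothing is read from its counts.

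**Figure D3:**
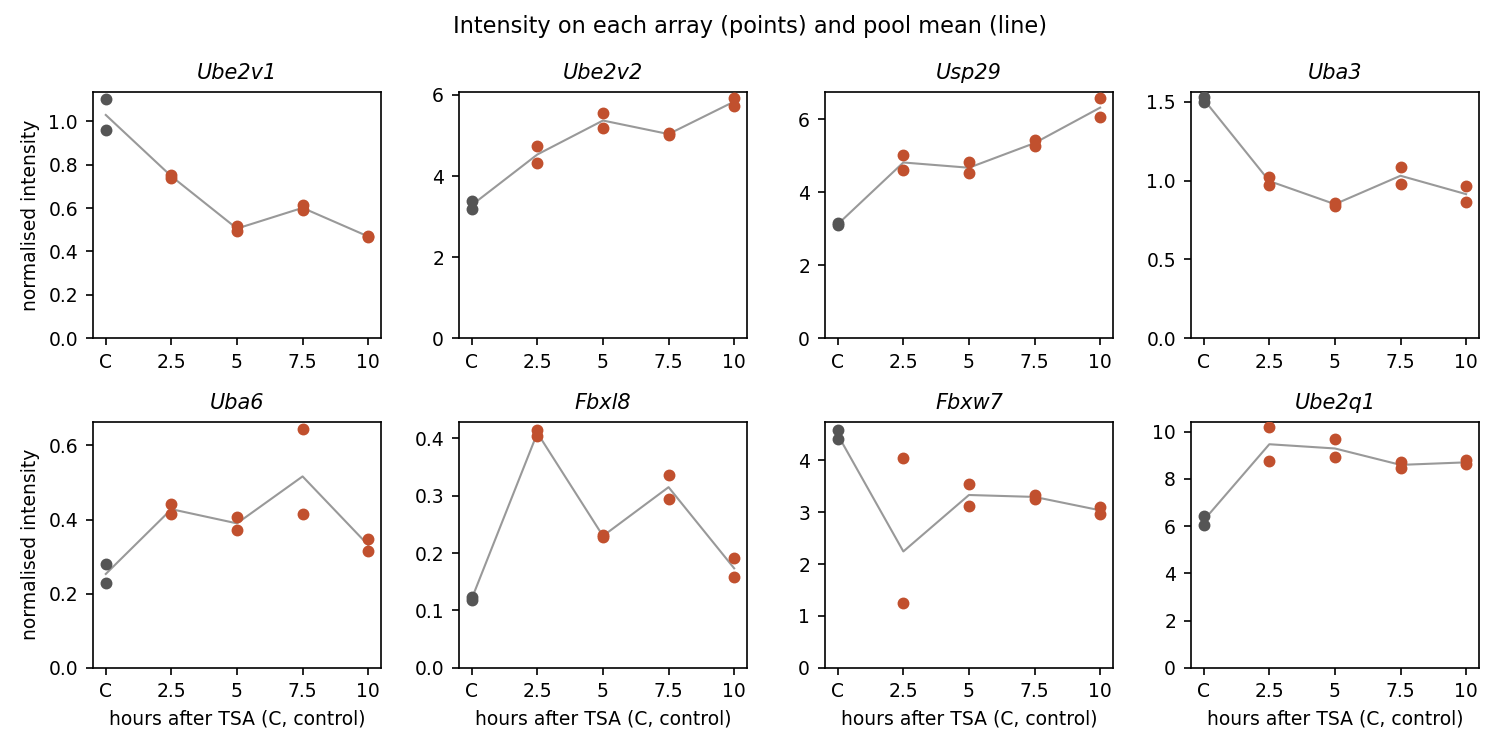
Array intensities (vertical axes, linear, without unit) of 8 members in the control pool (C) and at 2.5, 5, 7.5 and 10 h after TSA (horizontal axes); points are single arrays. Ube2v1 lies below its control arrays at every time and Ube2v2 above them, and the arrays of Fbxw7 at 2.5 h lie apart at 1.24 and 4.05.

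Of the activating enzymes, 3 of 4 probes were bright enough to be tested: 1 higher, 2 lower. Uba3, the catalytic subunit of the E1 of Nedd8 (probe 5921, chromosome 6), had intensities of 1.53 and 1.502 on the control arrays, 0.970 and 1.03 at 2.5 h, 0.841 and 0.860 at 5 h, 0.976 and 1.09 at 7.5 h, and 0.964 and 0.867 at 10 h. All 8 TSA arrays were below both control arrays, with no overlap, and the level was already low at 2.5 h. The log2 difference was -0.68 ± 0.14 (limma, adjusted p = 0.0521). Uba6, an alternative E1 of ubiquitin (chromosome 5), read 0.281 and 0.228 on the control arrays, 0.441 and 0.416 at 2.5 h, 0.408 and 0.372 at 5 h, 0.414 and 0.643 at 7.5 h, and 0.348 and 0.315 at 10 h. All 8 TSA arrays were above the control arrays, the highest being one of the 7.5 h duplicates, and the difference was 0.70 ± 0.23 (limma, adjusted p = 0.112). At 7.5 h its log2 fold was 1.03 ± 0.35 (error from duplicate arrays only), or 2.04-fold. It was 0.71 without the second 7.5 h array and 0.88 without the second control array, and 0.44 with 0.5 added before the logarithm, each below the 2-fold limit.

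Uba1y, the Y-linked copy of the ubiquitin E1 that is expressed in male germ cells, was lower at the late times. Its arrays read 1.57 and 1.56 on the control arrays, 1.57 and 1.68 at 2.5 h, 1.73 and 1.58 at 5 h, 1.18 and 1.37 at 7.5 h, and 1.07 and 0.978 at 10 h. The 2.5 and 5 h arrays stood at or above the control arrays and the 7.5 and 10 h arrays below them. The fitted change per hour was -0.0633 ± 0.0199 on the log2 scale (limma, adjusted p = 0.119). Uba7, the E1 of the ubiquitin-like protein Isg15, was dim in every pool.

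Among the conjugating enzymes 22 of 24 probes were tested, with 12 lower and 10 higher and a median of -0.18. Ube2v1 and Ube2v2 lay on opposite sides of the control, and the difference between them was not tested. Both encode E2 variants without a catalytic cysteine that pair with Ube2n, and with it build chains linked through lysine in signalling and DNA damage tolerance. Ube2v1 (probe 9592, chromosome 2) read 1.10 and 0.960 on the control arrays, 0.739 and 0.753 at 2.5 h, 0.496 and 0.515 at 5 h, 0.612 and 0.590 at 7.5 h, and 0.472 and 0.467 at 10 h. The level at 10 h was 2.19-fold below the control, no TSA array reached the control arrays, and the 7.5 h arrays lay a little above those at 5 h. Its log2 difference was -0.85 ± 0.25 (limma, adjusted p = 0.0913) and its slope -0.103 ± 0.0237 per hour (limma, adjusted p = 0.0727). The log2 folds were -0.46 ± 0.10, -1.03 ± 0.10, -0.78 ± 0.10 and -1.13 ± 0.10 at 2.5, 5, 7.5 and 10 h, where the error comes from duplicate arrays only. The 5 h fold was -0.93 without the first control array, -0.999 without the first 5 h array and -0.90 with arrays centred within bins of probe ID, short of 2-fold. With 0.5 added before the logarithm the 5 and 10 h folds were -0.61 and -0.66, and neither met the limit.

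Ube2v2 (probe 4522, chromosome 16) lay on the other side of its control, with 3.19 and 3.38 on the control arrays, 4.33 and 4.75 at 2.5 h, 5.19 and 5.56 at 5 h, 5.05 and 5.02 at 7.5 h, and 5.74 and 5.93 at 10 h. Every TSA array was above both control arrays, and the 10 h arrays were the highest of all. The log2 difference was 0.66 ± 0.16 (limma, adjusted p = 0.0656) and the slope 0.0725 ± 0.0188 per hour (limma, adjusted p = 0.0909). Their partner Ube2n (chromosome 10) read 1.75 and 2.04 on the control arrays, 1.52 and 1.44 at 2.5 h, 1.64 and 1.52 at 5 h, 1.37 and 1.69 at 7.5 h, and 1.45 and 1.503 at 10 h. It was lower in 4 of 4 TSA pools, with a log2 difference of -0.32 ± 0.11 (limma, adjusted p = 0.125), with little difference between the times. The promoter of Ube2v1 is shown because this gene had the lowest mean difference of the members; the window runs from 250 bases before to 30 after the transcript start in RefSeq (GRCm38.p6, chr2:167631976-167632255, minus strand), with GC boxes (GGGCGG on either strand) in capitals.
Ube2v1 promoter: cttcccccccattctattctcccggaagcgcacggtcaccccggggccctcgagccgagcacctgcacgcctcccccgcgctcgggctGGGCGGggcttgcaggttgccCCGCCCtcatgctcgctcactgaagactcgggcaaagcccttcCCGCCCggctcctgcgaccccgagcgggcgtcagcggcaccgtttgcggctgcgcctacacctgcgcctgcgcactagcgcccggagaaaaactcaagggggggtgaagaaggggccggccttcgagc

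Ube2a and Ube2b are the mouse counterparts of yeast Rad6, near-identical enzymes with roles in DNA damage tolerance and histone ubiquitination, and mice without Ube2b have male infertility. X-linked Ube2a read 8.66 and 7.64 on the control arrays, 9.40 and 9.29 at 2.5 h, 10.7 and 11.8 at 5 h, 9.76 and 10.7 at 7.5 h, and 11.9 and 11.5 at 10 h. It was above the control arrays on all 8 TSA arrays, by 0.38 ± 0.15 (limma, adjusted p = 0.157). Ube2b (chromosome 11) read 59.6 and 63.1 on the control arrays, 52.3 and 53.7 at 2.5 h, 58.5 and 54.1 at 5 h, 53.4 and 50.7 at 7.5 h, and 50.9 and 51.2 at 10 h. All 8 TSA arrays were below the control arrays, with a small log2 difference of -0.21 ± 0.11 (limma, adjusted p = 0.269). The difference between these genes was not tested, and probes of near-identical genes may share signal. Their promoters are shown in the same window because the pair lay on opposite sides of the control, with the GC box (GGGCGG) of Ube2a (chrX:36874045-36874324, plus strand) and the cyclic AMP response element (CRE, TGACGTCA) of Ube2b (chr11:52000757-52001036, minus strand) in capitals.
Ube2a promoter: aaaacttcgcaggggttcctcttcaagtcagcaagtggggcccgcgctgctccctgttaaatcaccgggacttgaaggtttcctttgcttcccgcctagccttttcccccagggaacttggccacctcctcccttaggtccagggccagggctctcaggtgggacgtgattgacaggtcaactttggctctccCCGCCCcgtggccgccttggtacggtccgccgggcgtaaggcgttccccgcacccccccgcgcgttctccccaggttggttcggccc
Ube2b promoter: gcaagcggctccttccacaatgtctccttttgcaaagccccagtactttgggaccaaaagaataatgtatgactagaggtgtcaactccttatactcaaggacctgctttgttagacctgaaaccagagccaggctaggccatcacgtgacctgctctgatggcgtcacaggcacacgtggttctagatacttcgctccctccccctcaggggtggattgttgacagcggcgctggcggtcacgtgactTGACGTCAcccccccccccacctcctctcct
Ube2b has 2 windows in the RefSeq table, and the first one listed is printed.

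Ube2q1 (chromosome 3), an E2 needed for female fertility in mice, read 6.45 and 6.05 on the control arrays, 10.2 and 8.77 at 2.5 h, 9.67 and 8.92 at 5 h, 8.73 and 8.46 at 7.5 h, and 8.62 and 8.79 at 10 h. No TSA array reached down to the control, and the highest value was at 2.5 h. It stood 0.53 ± 0.12 above the control in log2 units (limma, adjusted p = 0.0581). Ube2j1, an E2 of the endoplasmic reticulum that spermatids require, had control arrays at 47.5 and 47.6 and TSA arrays from 35.6 to 40.1. The ranges did not overlap, and the difference was -0.33 ± 0.11 (limma, adjusted p = 0.113). Ube2t, the E2 of the Fanconi anaemia pathway, went from 22.3 and 22.1 on the control arrays to 14.4 and 14.1 at 10 h, which the fit read as -0.0600 ± 0.0157 per hour (limma, adjusted p = 0.0909). Ube2l3, an E2 of HECT and RBR ligases, stood at -0.35 ± 0.11, lower in 4 of 4 pools (limma, adjusted p = 0.110). Ube2c, which works with the anaphase-promoting complex in mitosis, differed by 0.02 ± 0.13, less than its error.

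Ube2d-ps, a pseudogene of the Ube2d family that was picked after its values were seen, read 0.394 and 0.382 on the control arrays and 0.198 to 0.261 on the TSA arrays. Its log2 difference was -0.72 ± 0.15, lower in 4 of 4 pools (limma, adjusted p = 0.0555), and its signal may be shared with the parent genes. Some TSA arrays were under the dim limit of 0.207, so the size is uncertain. The 2 probes of Ube2h, picked after their values were seen, disagreed in size. The bright one (10492) stood at -0.26 ± 0.13 (limma, adjusted p = 0.241), while the dim one (5748), which was not tested, read 0.229 and 0.240 in the control pool and 0.0822 to 0.116 on the TSA arrays.

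For ligases outside the cullin family, the name rule gave 6 tested probes of 7. All 6 had a lower mean, with a median of -0.13, and 2 were lower in 4 of 4 TSA pools. Over all 7422 tested probes 3867 were lower. Of 28 tested probes of other listed ligases, which the name rule did not take, 17 were lower and 11 higher, with a median of -0.08. Nedd4, a HECT ligase of membrane proteins, read 0.358 and 0.390 on the control arrays, 0.236 and 0.262 at 2.5 h, 0.235 and 0.260 at 5 h, 0.257 and 0.4003 at 7.5 h, and 0.291 and 0.267 at 10 h. One of the 7.5 h arrays was above both control arrays, so the groups overlapped. The log2 difference was -0.46 ± 0.17 (limma, adjusted p = 0.141). Its relative Nedd4l stood at -0.22 ± 0.20, and the RING ligases Siah1a and Siah2 at -0.14 ± 0.16 and -0.13 ± 0.23. Siah2 was higher at 0.06 when the first control array was left out. Siah1b was too dim to test. Ube3a, the ligase of the Angelman syndrome locus, stayed near its control values, with 24.7 and 25.4 in the control pool, TSA arrays from 23.0 to 26.2 and a difference of -0.01 ± 0.11. That sign turned, at 0.01, without the first control array or without the 2.5 h pool.

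Cullins are the scaffolds that hold an E2 and a target receptor together, and 4 of 5 probes were tested. Cul7, an atypical cullin with a role in growth (chromosome 17), read 1.64 and 1.71 on the control arrays, 2.13 and 2.25 at 2.5 h, 2.23 and 2.23 at 5 h, 2.09 and 2.25 at 7.5 h, and 2.05 and 1.97 at 10 h. It was above both control arrays on all 8 TSA arrays, by 0.36 ± 0.11 (limma, adjusted p = 0.110). X-linked Cul4b, the scaffold of ligases that act on chromatin and replication proteins, read 1.05 and 1.01 on the control arrays, 0.568 and 0.587 at 2.5 h, 0.653 and 0.633 at 5 h, 0.832 and 0.846 at 7.5 h, and 0.907 and 0.950 at 10 h. The values were lowest at 2.5 h and closest to the control at 10 h, with log2 folds of -0.83, -0.68, -0.29 and -0.15. The mean difference was -0.49 ± 0.26 (limma, adjusted p = 0.266). Cul1, the scaffold of the F-box ligases, and Cul5 differed by -0.06 ± 0.15 and -0.0033 ± 0.19, within their errors, and the sign of Cul5 turned to 0.18 when each array was centred within bins of probe ID.

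F-box genes were the largest group, with 24 of 26 probes tested, 13 lower and 11 higher and a median of -0.02, the same as all tested probes. Fbxw7, the receptor that marks cyclin E, Myc and Notch for breakdown (probe 4656, chromosome 3), read 4.404 and 4.58 on the control arrays, 1.24 and 4.05 at 2.5 h, 3.13 and 3.55 at 5 h, 3.34 and 3.25 at 7.5 h, and 3.10 and 2.97 at 10 h. All 8 TSA arrays were below the control arrays, with a log2 difference of -0.61 ± 0.23 (limma, adjusted p = 0.141), but the 2.5 h duplicates disagreed. The fold at 2.5 h was -1.002 ± 0.85 (error from duplicate arrays only). It was -0.15 without the first 2.5 h array, -1.86 without the second, and -0.97 without the second control array. At the other times the log2 folds were -0.43, -0.45 and -0.56.

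Fbxl8 (probe 7306, chromosome 8), an F-box gene with leucine-rich repeats, had the highest mean difference of the members. It read 0.123 and 0.118 on the control arrays, 0.404 and 0.414 at 2.5 h, 0.228 and 0.231 at 5 h, 0.295 and 0.336 at 7.5 h, and 0.191 and 0.158 at 10 h. Both control arrays were under the dim limit of 0.207, as were both 10 h arrays, so the probe passed the limit through the pools where it was high and the size of its fold is uncertain. The log2 fold was 1.76 ± 0.0309 at 2.5 h (3.40-fold) and 1.39 ± 0.0981 at 7.5 h (2.61-fold), where the error comes from duplicate arrays only. Over the 4 pools the difference was 1.15 ± 0.42, with limma's error between pools (limma, adjusted p = 0.137). Between 2.5 and 10 h the log2 fold was -1.24, with a size as uncertain. With 0.5 added before the logarithm these folds were 0.55, 0.39 and -0.43, and none met the size rule.

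Fbxw4, an F-box gene of limb development that was picked after its values were seen, read 0.751 and 0.990 on the control arrays, 1.29 and 1.16 at 2.5 h, 1.30 and 1.22 at 5 h, 1.22 and 1.18 at 7.5 h, and 1.29 and 1.15 at 10 h. Its TSA arrays were all above the control arrays, with almost the same level at the 4 times, and the difference was 0.50 ± 0.11 (limma, adjusted p = 0.0529). Fbxo24, which is expressed in testis, read 4.84 and 4.89 on the control arrays and 5.27 to 6.80 on the TSA arrays, a difference of 0.30 ± 0.15 (limma, adjusted p = 0.242). Fbxl12 stood at 0.22 ± 0.13. On the lower side Fbxo3 passed neither test, at -0.35 ± 0.14 (limma, adjusted p = 0.160) and, per hour, -0.0444 ± 0.0144 (limma, adjusted p = 0.125). Fbxo31, too dim to test and picked after its values were seen, read 0.263 and 0.250 in the control pool and 0.0749 to 0.226 on the TSA arrays, and Fbxo32 was dim as well.

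**Figure D4:**
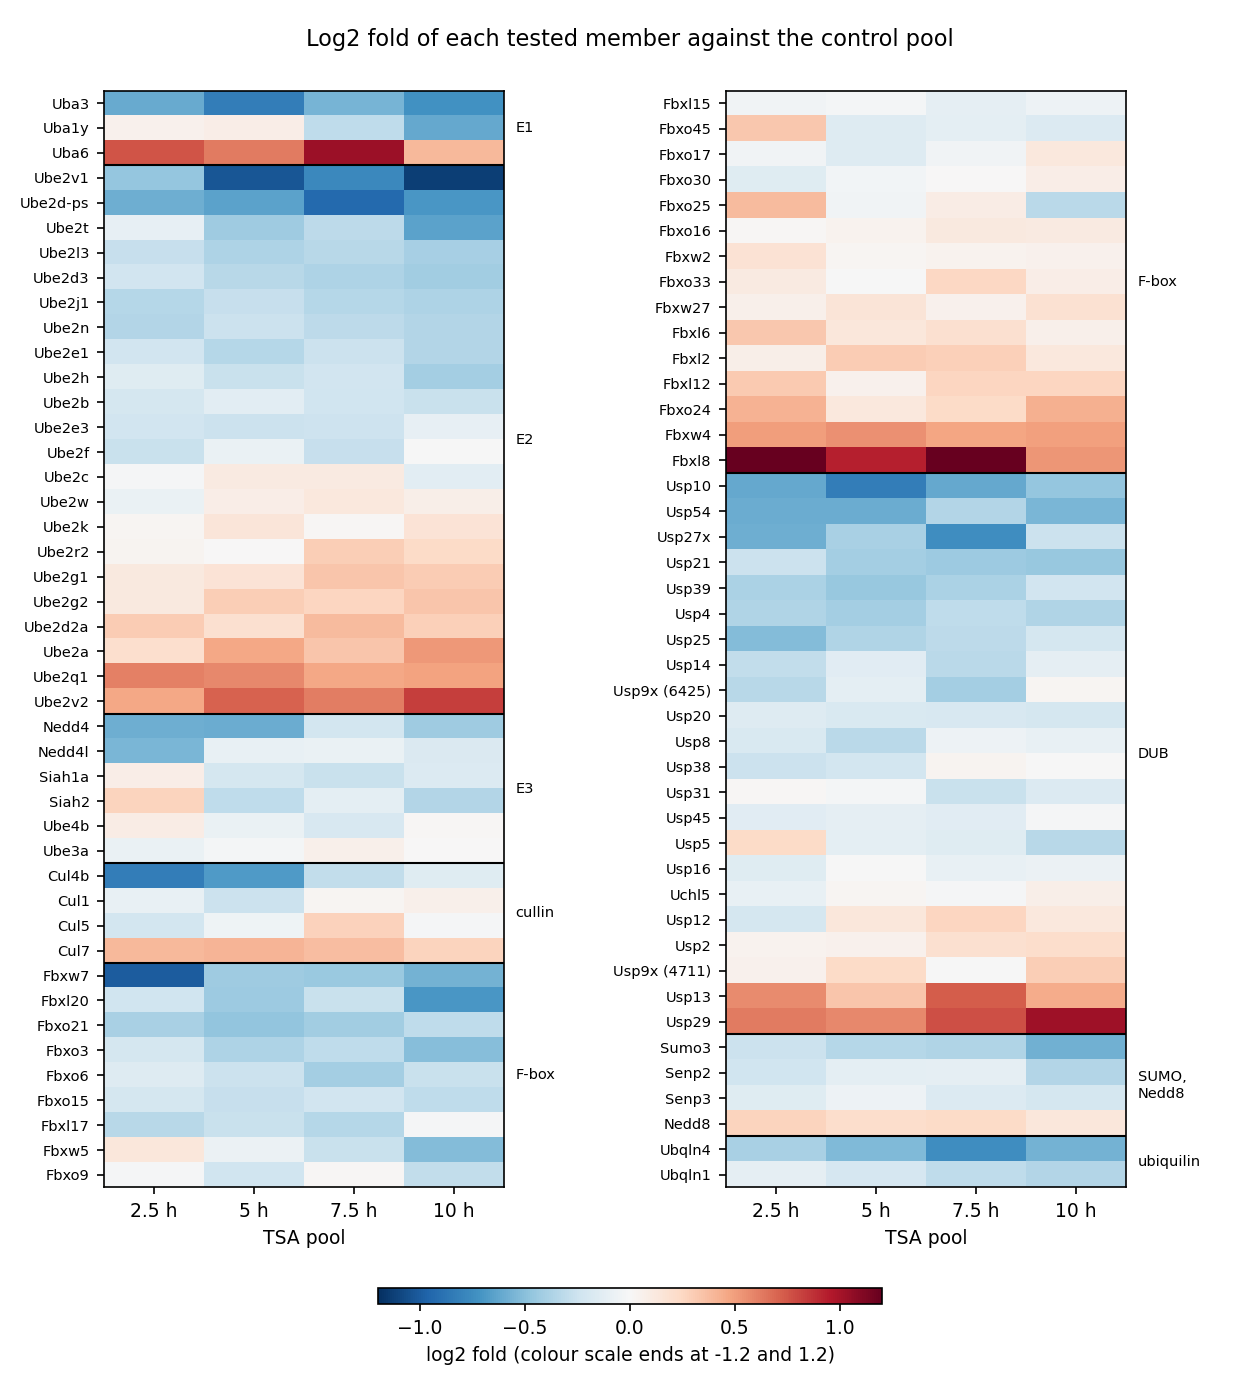
Log2 fold against the control pool (colour) of the 87 tested members (vertical axis) at 2.5, 5, 7.5 and 10 h (horizontal axis). In 41 members the mean of every TSA pool is below the control and in 23 above it.

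Of the 24 deubiquitinase probes 22 were tested, and 17 of them were lower and 5 higher, with a median of -0.14. Over all 7422 tested probes 3867 were lower. Of 12 tested probes of other listed deubiquitinases, which the name rule did not take, 6 were lower and 6 higher, with a median of -0.009. At an unadjusted p under 0.05 there were 7 on the lower side (13.7% of all tested probes) and 2 on the higher side (14.7% of all). Usp29 (probe 8183, chromosome 7), a deubiquitinase of an imprinted locus that is expressed in brain and testis, read 3.10 and 3.16 on the control arrays, 4.62 and 5.03 at 2.5 h, 4.53 and 4.83 at 5 h, 5.28 and 5.43 at 7.5 h, and 6.58 and 6.08 at 10 h. All 8 TSA arrays were above the control arrays and the 10 h arrays were the highest, at 2.02-fold. The log2 fold at 10 h was 1.02 ± 0.0587 (error from duplicate arrays only). It was 0.96 without the first 10 h array, 0.98 with arrays centred within bins of probe ID and 0.91 with 0.5 added before the logarithm, each below the 2-fold limit. Over the 4 pools the difference was 0.75 ± 0.18 (limma, adjusted p = 0.0683), and the slope was 0.0874 ± 0.0189 per hour (limma, adjusted p = 0.0649). Its promoter (GRCm38.p6, chr7:6730333-6730612, plus strand) is shown because it had the highest slope of the members, with its CRE in capitals; the element begins at base 8 after the start.
Usp29 promoter: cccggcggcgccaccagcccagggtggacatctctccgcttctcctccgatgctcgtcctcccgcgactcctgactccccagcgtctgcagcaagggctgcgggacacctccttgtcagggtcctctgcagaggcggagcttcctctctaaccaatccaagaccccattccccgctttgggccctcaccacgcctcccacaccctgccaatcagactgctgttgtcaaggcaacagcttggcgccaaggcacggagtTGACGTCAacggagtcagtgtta

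Usp10, which removes ubiquitin from p53 among other proteins and was picked after its values were seen, read 0.914 and 0.974 on the control arrays, 0.629 and 0.604 at 2.5 h, 0.542 and 0.520 at 5 h, 0.560 and 0.679 at 7.5 h, and 0.665 and 0.703 at 10 h. All TSA arrays were below the control arrays, lowest at 5 h, and the difference was -0.63 ± 0.15 (limma, adjusted p = 0.0699). Usp4 and Usp39, a splicing factor of this family without protease activity, had log2 differences of -0.36 ± 0.11 (limma, adjusted p = 0.0971) and -0.36 ± 0.13 (limma, adjusted p = 0.127), each lower in 4 of 4 pools. Usp14, the deubiquitinase bound to the proteasome, stood at -0.22 ± 0.13, and Uchl5, its neighbour on the proteasome, at -0.00095 ± 0.11. Usp2, which has a testis form, had a difference of 0.12 ± 0.12. For Usp9x, an X-linked deubiquitinase, the 2 probes disagreed: probe 4711 stood at 0.14 ± 0.15 and probe 6425 at -0.21 ± 0.18. Usp13 and Usp54, picked after their values were seen, stood at 0.52 ± 0.16 and -0.53 ± 0.14. Usp26 and Usp42 were too dim to test.

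The ubiquitin-like modifiers gave 4 probes, all tested. Nedd8 itself read 40.2 and 42.6 on the control arrays, 50.5 and 49.2 at 2.5 h, 50.2 and 45.7 at 5 h, 51.6 and 45.8 at 7.5 h, and 44.8 and 46.4 at 10 h. It was above the control on all 8 TSA arrays, by 0.21 ± 0.11 (limma, adjusted p = 0.256), on the opposite side from its E1 subunit Uba3. With arrays centred within bins of probe ID, it was at -0.08. Sumo3 (chromosome 10) read 2.19 and 1.90 on the control arrays, 1.61 and 1.80 at 2.5 h, 1.599 and 1.62 at 5 h, 1.63 and 1.55 at 7.5 h, and 1.34 and 1.39 at 10 h. Every TSA array was below the control arrays, with a log2 difference of -0.38 ± 0.15 (limma, adjusted p = 0.148), and the fitted change per hour was -0.0503 ± 0.0139 (limma, adjusted p = 0.0994). The SUMO proteases Senp2 and Senp3 differed by -0.20 ± 0.14 and -0.14 ± 0.11, and stood at 0.02 and 0.08 after that centring.

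For the ubiquilins 2 of 5 probes were tested. Ubqln4 (chromosome 3) read 0.724 and 0.617 on the control arrays, 0.553 and 0.470 at 2.5 h, 0.5002 and 0.430 at 5 h, 0.438 and 0.362 at 7.5 h, and 0.3997 and 0.510 at 10 h. No TSA array reached the control arrays, and the difference was -0.56 ± 0.15 (limma, adjusted p = 0.0817). The bright probe of Ubqln1 (10184) stood at -0.24 ± 0.13, lower in 4 of 4 pools. Its other 2 probes and that of Ubqln2 were dim.

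RefSeq promoter windows were found for 70 of the 95 genes. A GC box (GGGCGG, either strand) was in 48 of them (68.6%), against 34.9% of 27025 genes and 45.1% of 17492 protein-coding genes in the same table. The CRE (TGACGTCA, which reads the same on both strands) was in 4 (5.71%), those of Senp2, Ube2b, Ube2h and Usp29, against 1.83% and 2.30%. The motifs do not overlap in letters. Members with a CRE stood on both sides of the control: Usp29 was above it and Ube2b, Senp2 and the bright probe of Ube2h were below, of which Senp2 turned to 0.02 with arrays centred within bins of probe ID. A match of letters is a description of the window and not of binding.

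Of the other genes of the pathway, on a list of APC/C, COP9, SCF partners, other ligases, other deubiquitinases and SUMO and ubiquitin-like factors, 92 probes for 90 genes were on the array and 84 were tested. Their median log2 difference was -0.04, with 46 lower and 38 higher. By limma, 2 fell and 0 rose at an adjusted p under 0.05 (0.795% and 2.74% of all tested probes). These were Cbll1, a ligase also named Hakai, at -1.01 ± 0.18 (limma, adjusted p = 0.0474), and Rad23b, a shuttle that carries ubiquitinated proteins to the proteasome, at -0.69 ± 0.12 (limma, adjusted p = 0.0474). Rad23b read 1.53 and 1.66 on the control arrays and 0.887 to 1.09 on the TSA arrays. In the trend Sae1, a subunit of the SUMO E1, fell by 0.0817 log2 units per hour (SE 0.0146, limma, adjusted p = 0.0463; 1.66% of all tested probes fell), from 2.01 and 2.14 in the control pool to 1.23 and 0.987 at 10 h. All 3 calls ended after centring within bins of probe ID, where Cbll1, Rad23b and Sae1 stood at -0.83, -0.69 and -0.0732 (limma, adjusted p = 0.0672, 0.0631 and 0.0584). They ended as well without the 5 h pool, at -1.04, -0.69 and -0.0817 (limma, adjusted p = 0.091, 0.0971 and 0.0855), and with no filter on dim probes (limma, adjusted p = 0.125, 0.125 and 0.149).

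Both limma tests rest on 5 pool means and 1 control pool, so the p-values measure the spread between pools and assume that the control pool varies like the others. The count of 0 called members depended on the processing: it was 5 of 87 without the second control array (Fbxw4, Uba3, Ube2d-ps, Ube2v2 and Ubqln4) and 1 without the first (Ube2q1), where 6.68% and 4.11% of all tested probes passed. It was also 5 with the lowest 50% of probes left out (11.6% of all passed) and 8 with limma's options trend and robust (10.7% of all).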

How the data were processed

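The 15 mice gave 5 pools of testis RNA, each hybridised to 2 CodeLink 1-channel arrays. The deposited intensity of each probe was on a linear scale, and sorted values were identical on all arrays (largest difference 0), so the authors' deposited values had been quantile normalised. How the spots were scanned, background-corrected and normalised was not given in the sources used here. The members and lists were chosen with earlier results of these data known. Gene symbols came from the platform table, and chromosomes and promoters from RefSeq (GRCm38.p6), in which all 99 members had a gene entry.

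Intensities were raised to a floor at the 5th percentile (0.0364) and turned to log2, and the lowest 25% of probes by mean log2 value were left out, which left 7422. The 5 pool means were fitted with limma 3.58.1 (R 4.3.3, 3 residual degrees of freedom, two-sided), with Benjamini-Hochberg adjustment over all 7422 probes. The rules were tested on simulated data. The 3 mice of a group and their duplicate arrays gave 1 value, so p-values hold no spread within a group, and precision is limited by how few arrays there are. The sign ± precedes limma's standard error between pools for a mean difference or a slope. For a fold at a single time it precedes the standard error from duplicate arrays only. Arrays of the same number did not deviate together (correlations of -0.187 to 0.14 for 10 pairs of pools), so the numbers do not pair them.

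Genes were named by a rule: members that passed a test, and up to 5 each way that met the size rule at a time. It also took the 2 highest and 2 lowest of each role group with a mean intensity above 1.99. A list of 46 genes was always included, of which 17 had no values under the listed symbol. Among these was Ube2d2, while Ube2d2a was a tested member and is not described singly here. Fbxo31, Fbxo32, Fbxw4, Uba7, Ube2d-ps, Ube2h, Usp10, Usp13, Usp42 and Usp54 fell outside this rule and were picked after their values were seen. Alternatives were no filter, the lowest 50% left out, 0.5 added before the log2, centring each array within 50 bins of probe ID, a 1.5-fold limit, arrays or pools left out, the 10 arrays as samples with or without a replicate block or with a random block, and limma's trend and robust options. Plots were made in Python 3.11.15 with matplotlib 3.10.9.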

Additional observations from a re-analysis of the deposited data

Results flagged for a closer look

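For 6 named members both arrays of some TSA pools lay above both control arrays and both arrays of other TSA pools lay below them, and these differences between times were not tested. Uba1y had log2 folds of 0.0537 at 2.5 h and 0.0826 at 5 h, then -0.30 at 7.5 h and -0.61 at 10 h. Siah2 stood at 0.27 at 2.5 h, and at -0.30 and -0.35 at 5 and 10 h. Siah1a stood at 0.0790 at 2.5 h, and at -0.22, -0.27 and -0.16 at 5, 7.5 and 10 h. For Cul5 the folds were -0.22 at 2.5 h, -0.0488 at 5 h and 0.27 at 7.5 h. For Cul1 they were -0.26 at 5 h and 0.0608 at 10 h, and for Ube3a -0.0844 at 2.5 h, -0.0263 at 5 h and 0.0574 at 7.5 h. Apart from the late values of Uba1y, these folds were 0.35 log2 units or less in size.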

How the results depend on the processing

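Shares in parentheses are of all tested probes in the same fit. Called members in the test of TSA against control numbered 0 (3.53%), and 5 with the lowest 50% left out (11.6%) or with 0.5 added (7.55%), both times Fbxw4, Uba3, Ube2q1, Ube2v2 and Usp29. They were 1 after centring within bins of probe ID (1.28%, Ube2v2), 8 with trend and robust (10.7%), and 14 with the pool as a random block (14.1%). With arrays or pools left out they ran from 0 to 5 (0.0404 to 6.68%). With the 10 arrays as samples they were 38 with no block (35.8%) and 34 with the replicate block (32.2%); duplicates of a pool are not independent there. In the trend the counts were 0 (2.01%), and 1 with the lowest 50% left out (3.6%) or 0.5 added (1.99%), both times Usp29. They were 4 with trend and robust (3.89%), 9 with the random block (9.69%), 26 with no block (31.7%) and 23 with the replicate block (28.4%). With any array or pool left out the trend count was 0 (0 to 2.60%). By the size rule at 2.5, 5, 7.5 and 10 h and for 10 h against 2.5 h, the 1.5-fold limit gave 12, 10, 10, 8 and 7 members (7.57, 9.84, 11.8, 16.5 and 5.50%). Adding 0.5 gave 0 each (0.175, 0.579, 0.229, 0.404 and 0.0674%), and the lowest 50% left out gave 1, 0, 0, 1 and 0 (0.323, 0.546, 0.748, 1.48 and 0.344%). No filter gave 2, 5 and 4 at 5, 7.5 and 10 h (3.59, 5.60 and 4.63%), and centring gave 1 at 2.5 h (0.849%) and 0 at 5 h (1.56%). At 10 h centring kept the count at 2 (2.68%), with Ube2v2 in the place of Usp29. With arrays left out the counts ran from 1 to 2, 0 to 1, 1 to 2, 1 to 2 and 1 to 2. The shares there were 0.957 to 1.09%, 1.59 to 1.72%, 2.07 to 2.48%, 2.95 to 3.31% and 1.02 to 1.12%. The median of the members was -0.105 with the lowest 50% left out, -0.0889 with 0.5 added, -0.104 after centring, and -0.147 to -0.0918 with arrays or pools left out. After centring, Cul5 was at 0.176, Senp2 at 0.0224, Senp3 at 0.0820, Nedd8 at -0.0835, Uchl5 at 0.0279 and Ube2c at -0.0790, each on the other side of the control. With arrays or pools left out the sign turned for Cul5 (-0.0953 to 0.0691), Ube3a (-0.0345 to 0.0128), Uchl5 (-0.0241 to 0.0275), Ube2c (-0.0768 to 0.114) and Siah2 (-0.315 to 0.0622). The cause was not tested. Dim probes and 1 control pool limit all of these values.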
